A study of Mus musculus with 27 samples.

Results

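The 10 genes of microglia and of complement, namely C1qa, C1qb, C1qc, C3, Cx3cr1, Csf1r, P2ry12, Tmem119, Aif1 and Trem2, were followed in RNA-seq of whole mouse retina. They were taken by name from the deposited table, whose values are cpm (the reads of a feature scaled to the total of its library), in which each of the 10 symbols has exactly 1 entry among 38168 features. The 27 libraries came from wild type C57BL/6J mice at 7 ages, with 3 libraries for each of embryonic day 14 (E14), E17 and postnatal day 6 (P6), 4 for each of P1, P15 and P28, and 6 for P60. No allele, drug or other treatment distinguished the groups, which differed in age, and all tissue was taken in the light phase. By the study's methods a library pooled several embryos or at least 3 postnatal mice, except at P60, where 4 libraries were single mice. Animals were of mixed sex up to P1 and male afterwards. Age and sex therefore cannot be told apart between any age up to P1 and any later age.

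Microglia are the resident macrophages of the retina. They enter the eye during embryonic life, remove dying neurons, and take part in the pruning of synapses in the first postnatal weeks. C1q, the recognition molecule of the classical complement pathway, is built from A, B and C chains encoded by C1qa, C1qb and C1qc and in neural tissue is made mainly by microglia. Bound C1q starts a protease cascade that cleaves C3, whose fragments tag cells and synapses for uptake by phagocytes.

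The cpm of a library rested on 7077781 to 11332323 reads, a total inferred from the steps between its cpm values. The paper gives a higher sequencing depth per library. On these totals 1 read stood for 0.0882 to 0.141 cpm, and a count of 0 allowed up to 3 reads, or 0.265 to 0.424 cpm. These limits cover counting error only. The 10 genes had few reads. Over all 27 libraries P2ry12 had 1423 reads, Csf1r 1360 and Cx3cr1 962, whereas C1qb and C1qc had 148 each, C1qa 143, C3 136, Tmem119 101, Trem2 90 and Aif1 57. The labelled tissue was checked with neural retina markers, of which all 7 were listed and tested. Pax6, a progenitor and amacrine cell factor, was at 960.5 cpm on average at E14 and 410.1 cpm at P60. Of 25 further microglial marker genes all 25 were listed and 20 passed the filter, but the defining Tyrobp, an adaptor of Trem2, and Spi1, which encodes the factor PU.1, stayed below 1 cpm in every library. The P60 libraries stood apart from each other. They were compared by chi-square tests of recovered reads over features, with the statistic divided by its degrees of freedom. Replicates 1 and 2 were at 3.29 against each other and at 8.36 to 21.5 against replicates 3 to 6. Pairs among replicates 3 to 6 were at 4.62 to 9.31, which overlaps that range. Pairs at the other ages were at 1.72 to 8.22. In whole tissue, fewer microglia and less RNA per microglial cell cannot be told apart.

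The C1q genes lie side by side on the minus strand of chromosome 4 (GRCm38), with C1qb at 136880129 to 136886187, C1qc at 136889804 to 136893065 and C1qa at 136895917 to 136898803. No other annotated gene overlaps any of them. The 250 bases before the start site were read for the 7 of the 10 genes with an entry in the RefSeq table (GRCm38.p6), since several of them moved together with age. The motif GAGGAA, a form of the site bound by PU.1, an ETS factor, was searched on both strands. Only these 6 letters were searched. The shorter GGAA within them, the core shared by ETS factors, was not, and a window without a match can still hold it. On the other strand it reads TTCCTC. It was in 4 of the 7 windows (C1qb, C1qc, Aif1 and Trem2) and in 7639 of all 32851 windows (23.25%). A match is a description of the letters only. Below are 2 windows with a match, in capitals, and that of P2ry12, a purine receptor gene, which holds none. They lie at chr4:136886201-136886450 (C1qb, minus strand), chr17:48346151-48346400 (Trem2, plus strand) and chr3:59262986-59263235 (P2ry12, minus strand), and each is written 5′ to 3′ along its gene.
C1qb: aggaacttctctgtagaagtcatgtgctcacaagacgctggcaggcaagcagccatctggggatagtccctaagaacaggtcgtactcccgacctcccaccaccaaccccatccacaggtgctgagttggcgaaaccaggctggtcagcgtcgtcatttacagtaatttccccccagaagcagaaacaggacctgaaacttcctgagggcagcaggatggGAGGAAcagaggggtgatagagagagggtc
Trem2: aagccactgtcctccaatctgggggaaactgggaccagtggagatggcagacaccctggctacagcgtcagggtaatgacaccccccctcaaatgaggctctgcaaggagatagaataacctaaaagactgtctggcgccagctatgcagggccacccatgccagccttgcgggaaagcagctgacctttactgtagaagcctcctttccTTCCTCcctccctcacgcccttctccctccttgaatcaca
P2ry12: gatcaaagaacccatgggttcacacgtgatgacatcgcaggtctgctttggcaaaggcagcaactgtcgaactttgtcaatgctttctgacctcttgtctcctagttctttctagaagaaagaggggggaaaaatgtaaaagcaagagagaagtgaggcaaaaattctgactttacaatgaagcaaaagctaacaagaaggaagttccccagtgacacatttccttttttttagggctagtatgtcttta

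The C1q genes shared their highest point at P6. C1qc, the C chain, was at 1.70, 1.62 and 1.38 cpm in the 3 P6 libraries, that is 10 to 15 reads. It was at 0.491, 0.756, 0.226 and 0.710 cpm at P1, and at 0.307, 0.0882 and 0.103 cpm at E17, where the libraries held 1 to 3 reads. All 24 libraries of the other ages were below all P6 libraries, the nearest being P15 replicate 4 at 1.375 cpm against 1.379 in the lowest P6 library. Both of these held 10 reads and P15 replicate 3 held 11, so the order here rests on the library totals. How many of all features separate P6 in this way was not counted. At P15 the libraries split, with 0.402 and 0.132 cpm in replicates 1 and 2 and 1.34 and 1.37 cpm in replicates 3 and 4. E14 libraries ran from 0.600 to 0.842 cpm, P28 libraries from 0.421 to 0.799 and P60 libraries from 0.245 to 0.787 with a median of 0.526.

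C1qa, the A chain, was at 1.13, 1.62 and 1.38 cpm at P6. Of the other 24 libraries, 23 were below all P6 libraries, and the exception was P60 replicate 4 at 1.33 cpm. The 4 P1 libraries were at 0.981, 0.630, 0.452 and 0.118 cpm, and the 4 P15 libraries at 0.535, 0.658, 0.852 and 0 cpm. The P60 libraries reached from 0 in 2 libraries to 1.33 cpm, with a median of 0.382. C1qb, the B chain, was at 0.989, 1.08 and 1.38 cpm at P6, against 0.859, 0.252, 0.452 and 0.355 cpm at P1. For this gene the later ages overlapped P6. P15 replicate 3 was at 1.34 cpm and P60 ran from 0.221 to 1.51 cpm with a median of 0.947. Summed over the 3 chains, C1q stood at 1.57 ± 0.555 cpm at P1 (SD, n = 4), 4.09 ± 0.258 cpm at P6 (SD, n = 3) and 1.82 ± 0.436 cpm at P60 (SD, n = 6), with 27 to 40 reads in a P6 library and 8 to 20 in a P60 library.

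C3, the central component that C1q activity leads to, was at 0.989, 0.973 and 1.10 cpm at P6 and thus close among those libraries. It was lowest at E14, with 0.200, 0.105 and 0.210 cpm, or 1 to 2 reads. At E17 it was at 0.511, 0.441 and 1.04 cpm, and at P1 between 0.339 and 0.504 cpm. The P60 libraries were spread widely, from 0.245 to 1.79 cpm with a median of 0.830, and 3 of the 6 were at or above 1 cpm. The plot of complement genes shows these values.

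**Figure D1:**
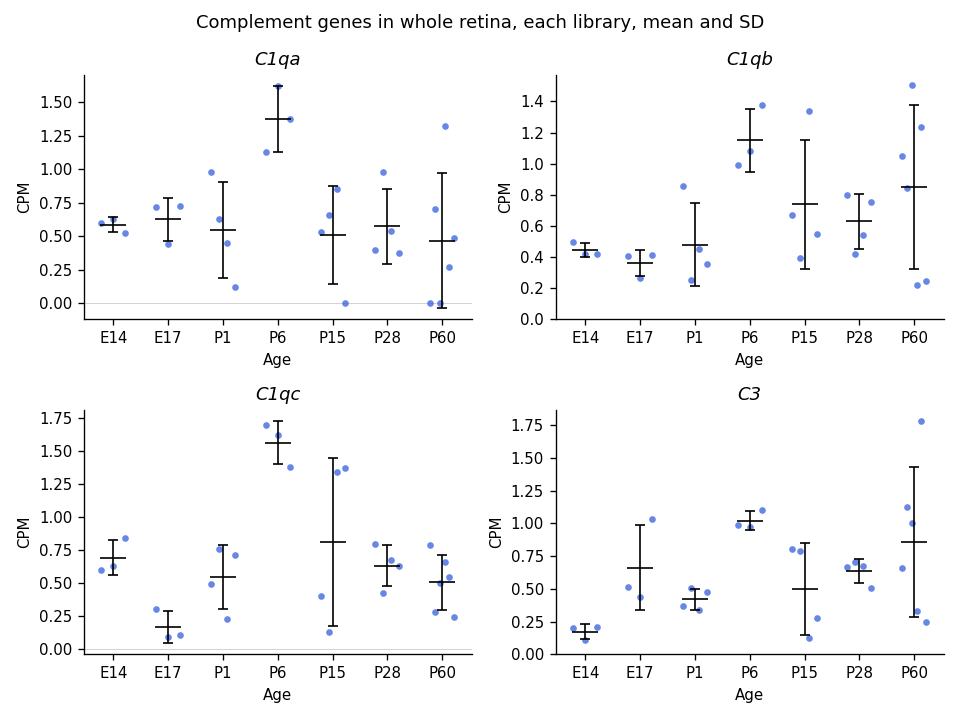
Levels of C1qa, C1qb, C1qc and C3 in cpm (vertical axes) at 7 ages (horizontal axes). Each point is a library, and black lines are the mean and SD of 3 to 6 libraries. The 3 P6 libraries of C1qc lie above all 24 others, though the lowest of them holds 10 reads, as does P15 replicate 4. Those of C1qa lie above 23 of 24.

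Among the surface receptors, Cx3cr1, the receptor through which microglia sense neuronal fractalkine, was at 7.35, 7.68 and 5.65 cpm at P6. It was at 4.30, 5.49 and 5.58 cpm at E14, and at 2.56, 2.21 and 3.52 cpm at E17. The E17 libraries were all below the E14 libraries. The P1 libraries were at 5.40, 2.90, 4.64 and 3.08 cpm. After P6 the age means went from 5.63 ± 1.17 cpm at P15 (SD, n = 4) through 4.31 ± 0.760 at P28 (SD, n = 4) to 2.83 ± 1.16 at P60 (SD, n = 6), where the libraries ran from 1.22 to 4.33 cpm. P60 thus did not overlap P6.

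P2ry12, the purine receptor that guides microglial processes, was at 9.47, 7.35 and 10.9 cpm at P6 and at 9.44, 6.30, 6.56 and 6.98 cpm at P1. The libraries of both ages overlapped. At P60 it ran from 1.25 cpm in replicate 3 to 6.82 cpm in replicate 1, with a median of 4.54, and all 6 libraries were below the P6 range. Csf1r, the receptor of the survival factors Csf1 and Il34, had another course. It was at 6.70, 6.43 and 6.32 cpm at E14, and at 3.88, 3.53 and 3.93 cpm at E17. At P6 it was at 6.64, 7.79 and 6.34 cpm, while at P60 it ran from 4.64 to 10.9 cpm with a median of 6.76. The 3 highest P60 values of Csf1r, 10.1, 10.9 and 7.47 cpm, were in replicates 4 to 6, in which Cx3cr1 was at 1.22, 2.88 and 1.84 cpm.

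The remaining microglial genes were near the limit of detection. Trem2, a lipid receptor needed for phagocytosis, had 4, 7 and 9 reads at P6 and 0 to 2 reads in the embryonic libraries, and its levels reached 1.37 cpm in P15 replicate 4 and 1.63 cpm in P60 replicate 3. Tmem119, a membrane protein of mature microglia, and Aif1, which encodes the actin-binding protein Iba1, reached 1 cpm in no library, with highest values of 0.980 and 0.552 cpm. Aif1 had 1 read in all 3 P6 libraries together, against 8 reads at P1 and 10 at P15. Its pooled level at P6 had an exact Poisson 95% interval of 0.00107 to 0.236 cpm, against 0.104 to 0.472 cpm at P1, and these intervals overlap. Tmem119 means lay between 0.211 cpm at P1 and 0.621 cpm at P60.

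**Figure D2:**
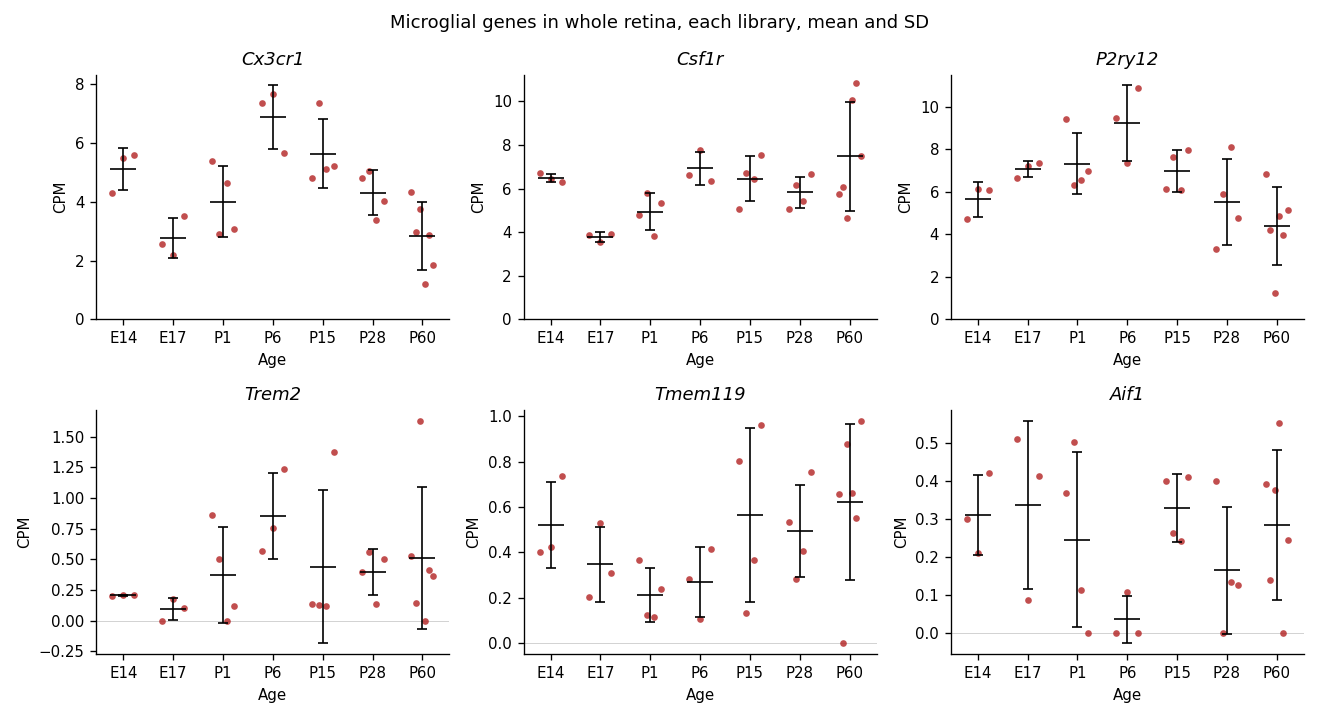
Levels of 6 microglial genes in cpm (vertical axes, each with its own range) at 7 ages (horizontal axes), drawn as points for libraries with the mean and SD in black. Cx3cr1 and P2ry12 are highest at P6 and lowest or near lowest at P60, Csf1r is lowest at E17, and Tmem119 and Aif1 stay below 1 cpm.

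By mean level at each age, 7 of the 10 genes (C1qa, C1qb, C1qc, C3, Cx3cr1, P2ry12 and Trem2) were highest at P6. The share of all features highest at P6 was not counted, so this count is a description only. For C1qb, C3 and Trem2 single P60 libraries, at 1.51, 1.79 and 1.63 cpm, were above all P6 libraries. For C1qa, C1qc, Cx3cr1 and P2ry12 no library of another age was above all P6 libraries. Csf1r and Tmem119 were highest at P60 and Aif1 at E17. The ratio of the highest to the lowest age mean was 2.50 for Cx3cr1, 2.11 for P2ry12, 1.98 for Csf1r, 2.96 for C1qa, 3.17 for C1qb and 9.42 for C1qc, whose lowest age, E17, rested on 5 reads. Compared per length of annotated exons, mean levels over the 27 libraries were 2.49 cpm per kb for P2ry12, 1.06 for Csf1r, 0.963 for Cx3cr1, 0.625 for C1qb, 0.609 for C1qa and 0.350 for C1qc, and below 0.2 for the other 4 genes.

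Differences between ages were tested with limma on log2(cpm + 1) across all 31760 features that reached 1 cpm in 3 or more libraries, with Benjamini-Hochberg adjustment and a threshold of 0.05. On this scale a difference understates the change of a low gene. The fit held 8 of the 10 genes, since Tmem119 and Aif1 did not pass the filter. C1qa and C1qc passed it only through their P6 libraries (1 and 2 libraries at 1 cpm without P6), C3 only through P60 (2 without P60), and Trem2 with exactly 3 libraries, 1 each at P6, P15 and P60. Counts that include them are therefore no support for a peak at those ages. Over the 7 ages 5 of the 8 varied by the F test (C1qc, C3, Csf1r, Cx3cr1 and P2ry12), where 83.0% of all features did. The count was 4, without C3, when P60 replicates 1 and 2 were left out, and 7 when P60 replicates 3 to 6 were. No separate cultures or batches are given in the labels, and p-values measure the spread between pools or mice as sampled.

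From P1 to P6, 4 of the 8 genes rose and 0 fell, while 18.0% of all features rose. C1qc rose by 0.74 (SE 0.21, limma adjusted p = 0.0048), Cx3cr1 by 0.68 (SE 0.24, adjusted p = 0.025), C1qa by 0.65 (SE 0.24, adjusted p = 0.034) and C1qb by 0.55 (SE 0.22, adjusted p = 0.044) on the log2 scale. The same 4 of all 10 genes were called without the filter on low values, where 14.9% of 38168 features rose. For C3 the difference was 0.51 (limma adjusted p = 0.060), for Trem2 0.46 (0.17), for Csf1r 0.42 (0.099) and for P2ry12 0.30 (0.42). The median of the 8 differences was 0.53, against -0.03 over all features. EdgeR (quasi-likelihood test, reads recovered from the cpm values) called C1qc (log2 difference 1.55, adjusted p = 0.015) and Cx3cr1 (0.83, adjusted p = 0.018), and 19.5% of all features as higher. C1qc passed the threshold under each alternative in which it was tested. C1qb lost its call without any of the libraries except P1 replicate 1, C1qa without P1 replicate 3 or 4 or P6 replicate 2 or 3, and Cx3cr1 without P1 replicate 2 or 4 or P6 replicate 1 or 2 (highest adjusted p 0.15, 0.16 and 0.095 by limma or edgeR).

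Genes of other cell types also rose at this step, where 18.0% of all features rose and 6476 of 31760 fell. Of 7 red cell markers 6 were listed, 4 were tested and all 4 rose, and their summed level went from 10.9 to 15.5 cpm in P1 libraries to 39.8 to 50.6 cpm in P6 libraries. Of 7 markers of the retinal pigment epithelium (RPE) all were tested and 4 rose, with sums of 8.32 to 17.8 cpm at P1 and 28.9 to 47.9 cpm at P6. Of 9 markers of border macrophages 5 were listed and 4 tested, and 1, Lyve1, rose, with sums of 2.25 to 5.55 and 4.98 to 7.49 cpm. Their defining Cd163 and Pf4 were not listed. Of 6 monocyte and neutrophil markers S100a8, S100a9, Ly6c2 and Plac8 were not listed, and the sum of the others stayed at or below 1.24 cpm at P6. Of 6 lymphocyte and mast cell markers 2 were listed and 0 passed the filter. Of 7 endothelial markers 5 rose and 1 fell, and their sum ran from 422.7 to 491.6 cpm at P1 and from 286.5 to 298.5 cpm at P6. Kdr, the 1 that fell, held most of that sum, with means of 457 cpm at P1 and 238.3 cpm at P6. Flt1 went from 2.92 to 24.1 cpm, Pecam1 from 1.55 to 7.98 and Esam from 0.381 to 4.68. The part of these cells in the P6 levels of the microglial and C1q genes was not tested.

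From P6 to P15 C1qa fell by 0.68 (SE 0.24, limma adjusted p = 0.028) and C1qc fell by 0.57 (SE 0.21, adjusted p = 0.033), which is 2 of 8 genes against 19.0% of all features. Neither was called by edgeR (adjusted p = 0.13 and 0.19). C1qc lost its limma call without any P6 library and without P15 replicate 1 or 2, where the difference without replicate 2 was -0.37, and C1qa without P6 replicate 2 or 3 or P15 replicate 4. From P6 to P60, a comparison that shares the P6 libraries, 4 of 8 genes fell against 30.8% of all features. Cx3cr1 fell by 1.09 (SE 0.22, limma adjusted p = 1.5e-04), P2ry12 by 1.01 (SE 0.25, adjusted p = 0.0013), C1qc by 0.78 (SE 0.19, adjusted p = 0.0012) and C1qa by 0.76 (SE 0.22, adjusted p = 0.0058), each written here as a drop on the log2 scale. The difference for Csf1r was 0.05 (SE 0.19, adjusted p = 0.84). By edgeR 3 of these 4 fell, with 23.4% of all features lower, and C1qa was at an adjusted p of 0.063. The median over all features was -0.14 at this step and -0.02 after median-of-ratios scaling, under which 7624 rather than 9787 features fell. With that scaling the 4 calls held, at -0.97 for Cx3cr1, -0.88 for P2ry12, -0.71 for C1qc and -0.70 for C1qa. The same 4 were called when P60 replicates 1 and 2 were left out (Cx3cr1 -1.26, P2ry12 -1.18) and when replicates 3 to 6 were (-0.77 and -0.66). Leaving out any 1 library gave 4 calls, or 5 without P60 replicate 3.

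Markers of other cells differed at this step too, where 30.8% of all features fell and 5905 of 31760 rose. Of the 4 red cell markers tested 2 fell, with sums of 39.8 to 50.6 cpm in P6 and 19.9 to 43.3 cpm in P60 libraries. Of the 7 RPE markers 4 fell and 1 rose, with sums of 28.9 to 47.9 and 13.3 to 43.9 cpm. Of the 7 endothelial markers 3 fell and 2 rose, with sums of 286.5 to 298.5 and 215.2 to 232.7 cpm. Kdr again held much of these sums, at means of 238.3 and 119.2 cpm, while Flt1 rose from 24.1 to 78.4 cpm. Of the 4 border macrophage markers tested 2 rose and 1 fell, with sums of 4.98 to 7.49 and 11.4 to 12.6 cpm. The part of these cells in the P60 levels was not tested.

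**Figure D3:**
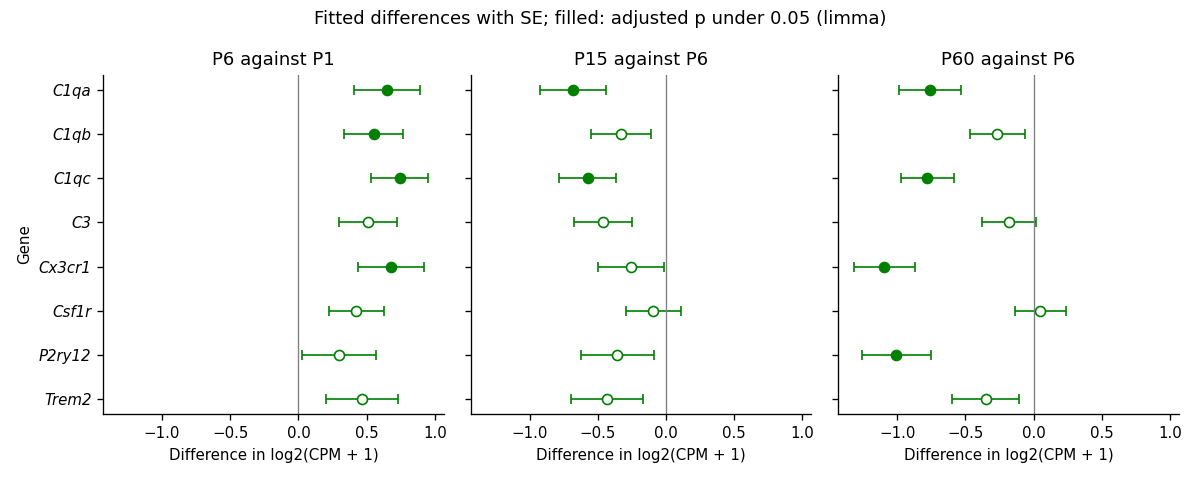
Fitted differences in log2(cpm + 1) (horizontal axes) of the 8 tested genes (vertical axis) for P6 against P1, P15 against P6 and P60 against P6, with SE bars from limma and filled points where the adjusted p was under 0.05. C1qa, C1qb, C1qc and Cx3cr1 are filled at the first step, C1qa and C1qc at the second, and C1qa, C1qc, Cx3cr1 and P2ry12 at the third.

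The other steps gave few calls. From E14 to E17 Csf1r fell by 0.65 on the log2 scale (SE 0.22, limma adjusted p = 0.0498), 1 of 8 genes against 3.02% of all features, and it lost the call when any of the 6 libraries was left out. From E17 to P1 limma called 0 genes, and 0 had an unadjusted p under 0.05, where 9.21% of all features changed. From P15 to P28 it again called 0, with 0 at an unadjusted p under 0.05 and 2.72% of all features changed. From P28 to P60 limma called 0, with 1 at an unadjusted p under 0.05 (Cx3cr1, -0.52, adjusted p = 0.085) and 12.9% of all features changed. Without P60 replicate 1 that count was 1, and it was 1 (Cx3cr1, -0.68, limma adjusted p = 0.011) without P60 replicates 1 and 2. EdgeR also called 0 at each of these 3 steps.

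Mature retina (P15, P28 and P60) was also compared with embryonic retina (E14 and E17), which sets male against mixed-sex libraries. Csf1r was higher by 0.31 (SE 0.13, limma adjusted p = 0.029), 1 of 8 genes where 35.0% of all features rose. This call was lost without E14 replicate 2 or 3 or E17 replicate 2. It was also lost with the replicate number as a block (adjusted p = 0.16) and without P60 replicates 3 to 6 (adjusted p = 0.052). EdgeR called 5 higher (Csf1r, C1qb, C1qc, C3 and Trem2) with 39.0% of all features higher, and 2 once E14 replicate 1 was left out. For Cx3cr1 and P2ry12 neither tool called a difference. Whether C1q changed relative to a receptor gene was asked with 6 log2 ratios per library, each C1q gene to Csf1r and to Cx3cr1. Each was the log2 of cpm + 1 of the C1q gene over cpm + 1 of the receptor gene. C1q was mostly under 1 cpm, so the added 1 made up much of the numerator. These are therefore not ratios of the levels themselves. The ratio of C1qa to Csf1r was -2.36 ± 0.420 in 14 mature and -1.90 ± 0.376 in 6 embryonic libraries (SD), a difference of -0.46 by an exact two-sided permutation test (p = 0.024, adjusted p = 0.14 over the 6 ratios). The size of this difference depended on the setting, from -0.14 for E14 against P28 and P60 to -1.08 on reads plus 0.5, with adjusted p of 0.080 to 0.62 by exact permutation test. By age the mean was -2.24 at E14 and -1.56 at E17, against -2.33 at P15, -2.13 at P28 and -2.55 at P60, so that E14 lay below P28. The other 5 had adjusted p of 0.70 to 0.85 by exact permutation test, with differences from -0.15 to 0.27, and the smallest p the design allows is 5.16e-05.

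Some of these genes share ground with others that were read far more often. P2ry12 lies within Med12l, which is on the opposite strand, and their exons share 9 bases. Med12l was at 66.9 ± 1.46 cpm at E14, 102 ± 4.29 at P6 (SD, n = 3 each) and 75.0 ± 10.6 at P60 (SD, n = 6), and fell by 0.45 from P6 to P60 on the log2 scale (limma adjusted p = 5.5e-05). By the GENCODE annotation Csf1r shares 873 exon bases with Hmgxb3 on the opposite strand, while the RefSeq spans of these genes share 0 bases. Hmgxb3 was at 38.9 ± 3.94 cpm at E14, 31.8 ± 2.09 at E17 (SD, n = 3 each) and 46.3 ± 10.7 at P60, with single P60 libraries from 28.3 to 56.1 cpm, and its difference from E14 to E17 was -0.28 (adjusted p = 0.32, limma). The GENCODE span of Cx3cr1 overlaps Wdr48 and several other genes, but shares exon bases with none of those that have cpm values. Its RefSeq span shares 0 bases with Wdr48. The sources used here do not say which annotation was counted or whether counting used the strand. Reads of such partners therefore cannot be told apart, and their part in the levels of P2ry12 and Csf1r was not tested.

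**Figure D4:**
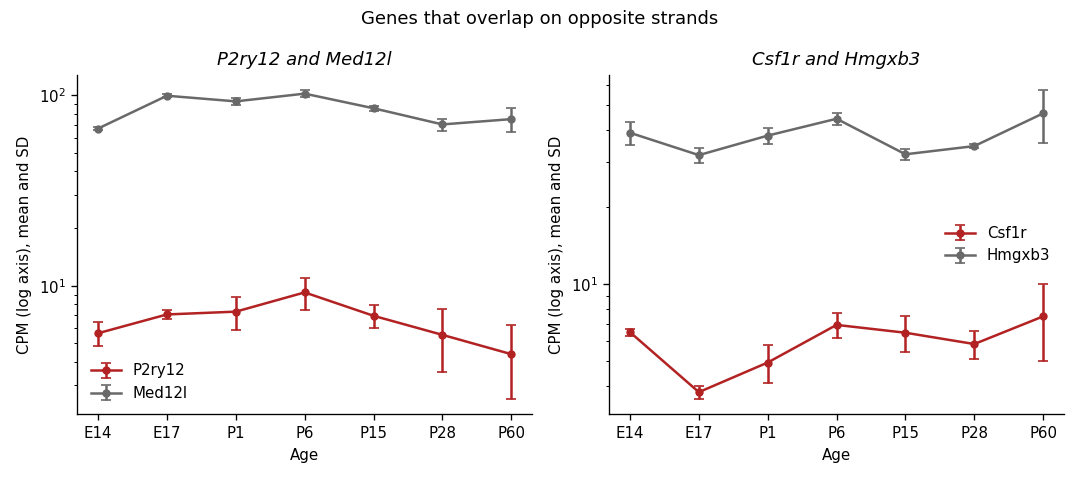
Mean and SD in cpm on a log axis (vertical) by age (horizontal) of P2ry12 with Med12l (left) and of Csf1r with Hmgxb3 (right), 3 to 6 libraries per age. P2ry12 and Med12l are both highest at P6, and Csf1r and Hmgxb3 are both lowest at E17 and highest at P60.

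Other microglial genes were read from a list of 25. From P1 to P6 3 of the 20 tested rose and 1 fell, where 18.0% of all features rose. Those that rose included Lgmn, a lysosomal protease that other cells also make, and Ctss, a microglial cathepsin. Ctss went from a mean of 1.87 to 6.06 cpm (log2 difference 1.32, limma adjusted p = 2.7e-05). Runx1, a blood lineage factor, fell by 0.82 (adjusted p = 0.0065, limma). From P6 to P60 9 of the 20 fell and 0 rose, where 30.8% of all features fell. Among them Gpr34, a lysophospholipid receptor of microglia, went from 8.30 to 3.63 cpm, and P2ry13, a purine receptor related to P2ry12, from 6.64 to 3.67 cpm. In mature against embryonic retina 8 rose and 4 fell, where 35.0% of all features rose and 12836 of 31760 fell. Gpr34, P2ry13, Ctss and Runx1 were named after their values were seen.

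Of 4 ligands of microglial receptors 3 were tested. Cx3cl1, the fractalkine ligand of Cx3cr1 made by neurons, was at 0.713 cpm at E14, 7.11 at P6 and 28.5 at P60, and was 3.82 higher in mature than in embryonic retina on the log2 scale (limma adjusted p = 4.0e-24). Csf1 was 0.96 lower (adjusted p = 1.1e-06) and Il34, the other Csf1r ligand, 0.89 higher (adjusted p = 5.0e-05, limma), while Tgfb1 did not pass the filter. Cx3cl1 rose from P1 to P6 by 1.06 (adjusted p = 1.1e-05, limma) and from P6 to P60 by 1.86 (adjusted p = 5.5e-11, limma). Whether its course differed from that of Cx3cr1 was not tested.

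Of the complement receptors 5 of 8 were listed and 3 tested. C3ar1, the receptor of the C3a fragment, was 0.61 higher at P6 than at P1 (limma adjusted p = 0.044) and fell by 1.15 from P6 to P60 (adjusted p = 8.2e-05), with means of 1.82, 3.23 and 0.927 cpm at these ages. Itgam, the alpha chain of the microglial C3 receptor CR3, was 0.93 higher at P6 than at P1 (limma adjusted p = 0.0056). Cr2, a receptor for C3 fragments known from B cells, fell by 1.85 from P6 to P60 (adjusted p = 9.7e-08, limma). The other complement components had 10 of 14 listed and 6 tested. In mature against embryonic retina C4b and C4a, near-identical copies whose reads counting may split, rose by 1.31 and 0.48 (limma adjusted p = 2.6e-08 and 0.014) and Masp2 fell by 0.38. C4b went from 0.202 cpm at E14 to 3.59 cpm at P60.

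The complement regulators restrain the cascade. Of 14 genes 13 were tested, and 7 rose and 1 fell from P1 to P6, where 18.0% of all features rose, while 9 rose and 3 fell in mature against embryonic retina, where 35.0% rose. Vtn, which encodes vitronectin, was at 3.55 cpm at E14 and 0.755 at E17. It went from 0.605 cpm at P1 to 8.32 at P6 and 215.9 at P60, and Clu, which encodes clusterin, from 1.32 to 8.19 and 71.8 cpm. Cd46 went from 21.9 to 37.9 and 116.8 cpm. Serping1, the C1 inhibitor, was the gene that fell from P1 to P6, by 1.08 (limma adjusted p = 7.2e-04). Their summed level was 131.8 ± 1.78 cpm at E14 (SD, n = 3) and 592.9 ± 33.5 cpm at P60 (SD, n = 6), while the C1q sum was 1.73 ± 0.0553 cpm and 1.82 ± 0.436 cpm at the same ages. These are courses over age, not levels to be set against each other, since they are not per length. C3ar1, Itgam, Cr2, C4b, C4a and Serping1 were not all among the most abundant genes of their lists, and were named after their values were seen.

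**Figure D5:**
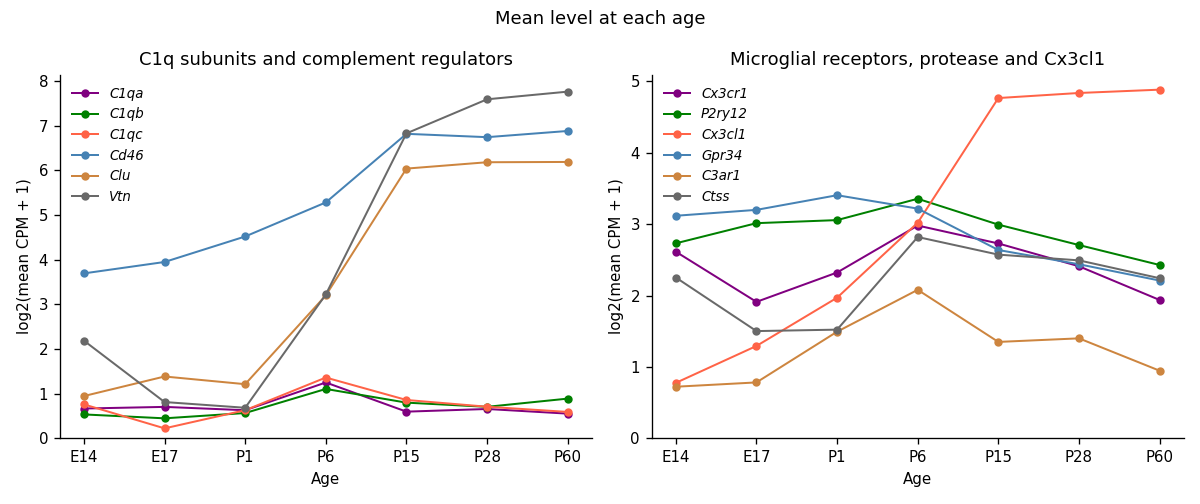
Mean level on a log2(cpm + 1) scale (vertical axes) by age (horizontal axes), lines joining age means of 3 to 6 libraries. The left panel sets C1qa, C1qb and C1qc beside the regulators Cd46, Clu and Vtn. These regulators rise from P1 to P15, and Vtn is lower at E17 and P1 than at E14. The right panel sets Cx3cr1 and P2ry12 beside Cx3cl1, Gpr34, C3ar1 and Ctss.

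Of 17 genes of phagocytic microglia 14 were tested, and 6 rose and 3 fell from P1 to P6, where 18.0% of all features rose and 6476 of 31760 fell. The most abundant of them are not particular to microglia. Apoe, a lipid carrier also made by Müller glia, rose by 1.13 (limma adjusted p = 8.8e-09). Ctsb and Ctsd, lysosomal cathepsins of many cell types, rose by 0.75 and 0.73 (adjusted p = 8.7e-10 and 1.0e-06, limma). Igf1, also among the 4 most abundant, was not called (-0.18, adjusted p = 0.47, limma). Those that fell were Fabp5, Axl and Lgals3.

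The genes most like the members were sought among 18223 features with a Gene ID and a mean of at least 1 cpm, by Pearson r of log2(cpm + 1) over the 27 libraries, which share their ages. Nearest to the mean of the 3 C1q genes were Ap2m1, a subunit of the clathrin adaptor AP-2 (r = 0.831), Rraga, a Rag GTPase (r = 0.818), and Zfpm2, a GATA cofactor (r = 0.787). Ap2m1 was at 124.4 cpm at P1, 235.5 at P6 and 148.5 at P15, and Rraga at 62.7, 187.2 and 66.7 cpm. None of the 10 nearest was on the list of microglial markers. Nearest to the mean of the 6 microglial genes were Rasl11a (r = 0.712) and Peli2, a ubiquitin ligase of innate signaling (r = 0.711). With C1q at few reads per library, these r values describe a shared P6 maximum and no more.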

How the data were processed

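Total RNA of dissected whole retinas was made into libraries with the SMARTer total RNA kit and sequenced single-end. The authors aligned reads to GRCm38 (mm10) with STAR and deposited cpm values, which scale the reads of each feature by the total of its library, 1 column per library. Annotation and strand of counting are not given in the sources used here. Every cpm value divided by that of 1 read gave a whole number (100% within 0.1 read), so reads were recovered. In E14 replicate 1 the step lies close to a round decimal, and edgeR was therefore also run without it, an alternative chosen after the data were seen.

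The deposited cpm values were put on a log2(cpm + 1) scale, filtered at 1 cpm in 3 libraries and fitted with limma 3.58.1 (mean-variance trend, age as factor, all 27 libraries, R 4.3.3). EdgeR 4.0.16 was run on recovered reads with its TMM scaling. Both tests are two-sided, were tested on simulated data, and had p-values adjusted by Benjamini-Hochberg across every feature tested. Python 3.11.15 with pandas 2.3.3, scipy 1.17.1, numpy 2.4.6 and matplotlib 3.10.9 served for the rest. Replicate libraries of an age all differed by more than sampling noise (chi-square per degree of freedom 1.72 to 21.5). The P60 libraries were taken as replicates 1 and 2 and replicates 3 to 6, and fits without either were added after the data were seen. This split is not clean, since replicate 6 was at 8.36 and 8.89 against replicates 1 and 2 and at 9.31 against replicate 3.

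Fold changes of the 10 genes are printed where called. From each list the 4 genes of highest mean could be named, and any other is named as seen. The members and lists were chosen with earlier results of these data known. Alternatives were a pseudocount of 0.1, no filter, a mean of at least 10 cpm, median-of-ratios scaling, the replicate block, a fit of the compared ages only and leaving out each library. Gene positions came from GENCODE, upstream sequences from RefSeq (GRCm38.p6). Single values of a few listed genes are not reported here, though list counts include them.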

Additional observations from a re-analysis of the deposited data

Results flagged for a closer look

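For each gene, the highest and lowest library was set against the others in the 40 groups of 4 to 6 libraries (10 genes at P1, P15, P28 and P60), a test that marks about 1 in 20 groups by chance. It marked 3. Cx3cr1 was at 7.37 cpm (56 reads) in P15 replicate 2, against 4.82 to 5.22 cpm in the other P15 libraries. Trem2 was at 1.37 cpm (10 reads) in P15 replicate 4, against 0.122 to 0.134 cpm in the others, which hold 1 read each. Trem2 was at 1.63 cpm (13 reads) in P60 replicate 3, against 0 to 0.525 cpm. P15 replicate 4 also held the highest P15 value of C1qc and no read of C1qa.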

How the results depend on the processing

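Direction did not reverse for any of the 12 single-gene calls under the alternatives tried. The calls of Cx3cr1, P2ry12 and C1qc at P60 against P6 and of C1qc at P6 against P1 kept their side of the threshold throughout. Requiring a mean of 10 cpm left none of the 10 genes to test, so every count was 0. With a pseudocount of 0.1, 2 genes were called at P6 against P1 and 0 at P15 against P6. With no filter, 0 were called at E17 against E14. Median-of-ratios scaling gave 1 at P15 against P6, and so did a fit of the compared ages only, which gave 4 at E17 against E14. EdgeR gave 2 at P6 against P1, 0 at P15 against P6 and 5 in mature against embryonic retina, and without E14 replicate 1 it gave 2, 0 and 2, and 0 at E17 against E14. With the replicate number as a block, 1 was called at P15 against P6, where C1qa was lost, and Cx3cr1 and C1qa were lost at P6 against P1 (3 called in all). Same-numbered libraries of different ages did not deviate together (median r -0.0018 over 69 pairs, 3 of them over 0.1), so the number is not taken as a pairing. Without P60 replicates 1 and 2, chosen after the data were seen, 1 was called at P60 against P28. Leaving out 1 library gave 0 to 0 calls at E17 against E14, 1 to 4 at P6 against P1, 0 to 2 at P15 against P6, 0 to 1 at P60 against P28 and 0 to 3 in mature against embryonic retina. Of the ratios, C1qb to Csf1r turned to 0.23 with a pseudocount of 0.1, 0.29 on reads plus 0.5 and 0.22 for E14 against P28 and P60, and ran from -0.12 to 0.034 when 1 library was left out. C1qc to Csf1r turned to 0.16 and 0.29 under the first 2 of these, and C1qa to Cx3cr1 to 0.40 under the third. Counts higher over all features moved with scaling at P60 against P28, from 37.2% of the calls to 51.6% with median-of-ratios. The cause of these moves was not tested. At 0 to 15 reads per library for C1q, C3, Trem2, Tmem119 and Aif1, smaller changes were not detectable at this depth.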
